A study of Mus musculus with 9 samples.

Results

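Collagens are the structural proteins of the extracellular matrix, and their genes were followed in RNA from the midbrain of mouse fetuses in which Gpr161, a G protein-coupled receptor of the primary cilium, had been deleted from the Wnt1-Cre lineage. Every gene whose symbol has the form Col, a type number, a and a chain number was taken, without regard to its values, which gave 44 of the 21356 gene names in the table. They comprise 11 fibrillar collagens, 6 type IV collagens and 27 others. Poly-A selected RNA was sequenced from 9 fetuses of the C57BL/6 strain at E13.5, 3 of each genotype. The floxed control was Gpr161 f/f without Cre, the Cre control was Gpr161 f/+;Wnt1-Cre and carries 1 floxed allele, and the cKO was Gpr161 f/f;Wnt1-Cre. The transgene drives Cre in the mesencephalon and in the neural crest lineage, so that both neural tissue and crest-derived mesenchyme of the dissected piece can be recombined.

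A collagen molecule is a triple helix of 3 chains, which may be copies of 1 chain or products of different genes. Fibrillar collagens (types I, II, III, V, XI, XXIV and XXVII) pack side by side into the fibrils of connective tissue. Type IV collagens form the sheet-like network of basement membranes, on which the neuroepithelium and the blood vessels of the embryonic brain rest. The others include the beaded filaments of type VI, the FACITs, which attach to the surface of fibrils, the multiplexins of basement membrane zones, the short-chain networks of types VIII and X, the anchoring fibril collagen type VII and the transmembrane collagens. In the embryonic head much of the fibrillar collagen is made by the meninges, the mesenchyme and the cells of vessel walls.

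The promoters of 4 members are shown because they stand for the main patterns described here: Col3a1 was the highest fibrillar collagen, Col7a1 had the smallest adjusted p, Col25a1 was lower in the cKO, and Col11a1 rose where its partner chain Col11a2 did not. Each run is the 120 bases before the RefSeq start of the gene on GRCm38, all on the plus strand, and capitals mark 3 short promoter elements read on either strand, the CCAAT box, the TATA element (TATAAA) and the GC box (GGGCGG). The coordinates are chr1:45311418-45311537 for Col3a1, chr9:108953466-108953585 for Col7a1, chr3:130180725-130180844 for Col25a1 and chr3:114030420-114030539 for Col11a1. For Col25a1 this start lies inside the longer gene that GENCODE annotates at chr3:130131501-130599877, whose own start is upstream.
Col3a1: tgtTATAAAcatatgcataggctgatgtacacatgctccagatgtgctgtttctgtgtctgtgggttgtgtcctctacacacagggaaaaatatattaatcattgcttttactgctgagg
Col7a1: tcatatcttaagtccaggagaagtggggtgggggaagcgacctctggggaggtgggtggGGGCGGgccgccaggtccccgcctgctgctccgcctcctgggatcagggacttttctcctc
Col25a1: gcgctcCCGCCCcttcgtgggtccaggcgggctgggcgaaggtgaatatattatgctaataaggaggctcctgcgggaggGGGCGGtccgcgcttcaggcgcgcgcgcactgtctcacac
Col11a1: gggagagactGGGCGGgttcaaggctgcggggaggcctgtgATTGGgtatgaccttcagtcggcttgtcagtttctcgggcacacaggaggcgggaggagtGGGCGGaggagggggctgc
The run of Col3a1 held TATAAA, and those of Col7a1, Col25a1 and Col11a1 held GGGCGG. The RefSeq table matched 35 of the 44 genes, in 38 windows. In the 250 bases before the start, GGGCGG stood in 22 collagen windows (57.9%) and in 32.7% of all 32851 windows. TATAAA stood in 5 collagen windows (13.2%, against 12.4% of all), and CCAAT in 13 (34.2%, against 33.8%). These matches are descriptions of letters and not of bound sites.

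The head-to-head pair Col4a1 and Col4a2 is shown for another reason, since these genes start on opposite strands of chromosome 8 at almost the same place. Col4a1 was annotated on the minus strand at chr8:11198423-11312826 and Col4a2 on the plus strand at chr8:11312805-11449287. The annotated genes overlap by 22 bases, chr8:11312805-11312826, which are printed here from the plus strand. No element is capitalized in this run, although it holds GGGCGG.
Col4a1 and Col4a2, shared start: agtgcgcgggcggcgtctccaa

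The deposited values are on a log2 scale, normalized between libraries, with low values drawn together, so that fold changes of weakly expressed genes are understated. Of the collagens, 39 reached 1 cpm, counted after the values were turned back from logs, in 3 or more libraries and were tested. Col10a1, Col19a1, Col4a4, Col6a4 and Col6a5 did not, with values between 2.22 and 4.56 over all libraries. Gpr161 itself lay between 11.74 and 11.80 in the floxed controls, between 11.77 and 11.96 in the Cre controls and between 11.74 and 11.95 in the cKO. These values are sums over the whole gene and do not resolve the floxed sequence, so they check neither the deletion nor the labels.

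Collagen transcripts made up a small share of the total signal, and 5 genes carried most of it. Summed linear values of all 44 collagens were 0.300% ± 0.0651 of the library total in floxed fetuses (mean ± SD, n = 3), 0.351% ± 0.0783 in Cre fetuses and 0.425% ± 0.0101 in cKO fetuses. Col3a1, Col1a2, Col1a1, Col4a1 and Col4a2 together held between 55.3% and 61.8% of the collagen signal of a library. Ranked by the mean linear value per kilobase of annotated transcript, on a log2 scale, the order began with Col3a1 (11.67), the collagen of vessels and soft connective tissue. Col1a2 (11.30) and Col1a1 (10.85), the chains of type I collagen, followed, then Col4a1 (10.495), Col2a1 (10.01), the main collagen of cartilage, and Col4a2 (9.83). Col26a1 (9.81), Col5a2 (9.46) and Col18a1 (9.19) came next. Col2a1 thus stood just after Col4a1. Of the cartilage markers, Acan, the proteoglycan aggrecan, lay between 4.64 and 5.04, Matn4 between 6.31 and 7.30 and Cnmd between 6.53 and 7.09 in log2 values, and Matn1 and Matn3 were below the filter.

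Fibrillar collagens varied more between libraries of the control genotypes than between libraries of the cKO. Their summed linear value in cpm was 1696, 2213 and 1303 in floxed controls 1 to 3, and 1539, 2513 and 2173 in Cre controls 1 to 3. In the cKO it was 2649, 2578 and 2509. The 3 cKO libraries thus lay within a narrow band, above the 3 floxed controls and, by a small margin in cKO 3, below the highest Cre control. Type IV collagens summed to 497, 659 and 575 cpm in the floxed controls, 469, 731 and 668 in the Cre controls and 735, 762 and 695 in the cKO. The other collagens summed to 646, 846 and 570 in the floxed controls, 658, 967 and 815 in the Cre controls and 961, 911 and 940 in the cKO. In both of these classes cKO libraries lay above all floxed controls and overlapped with the Cre controls. In bulk tissue, fewer cells of a type and less RNA per cell cannot be told apart.

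**Figure D1:**
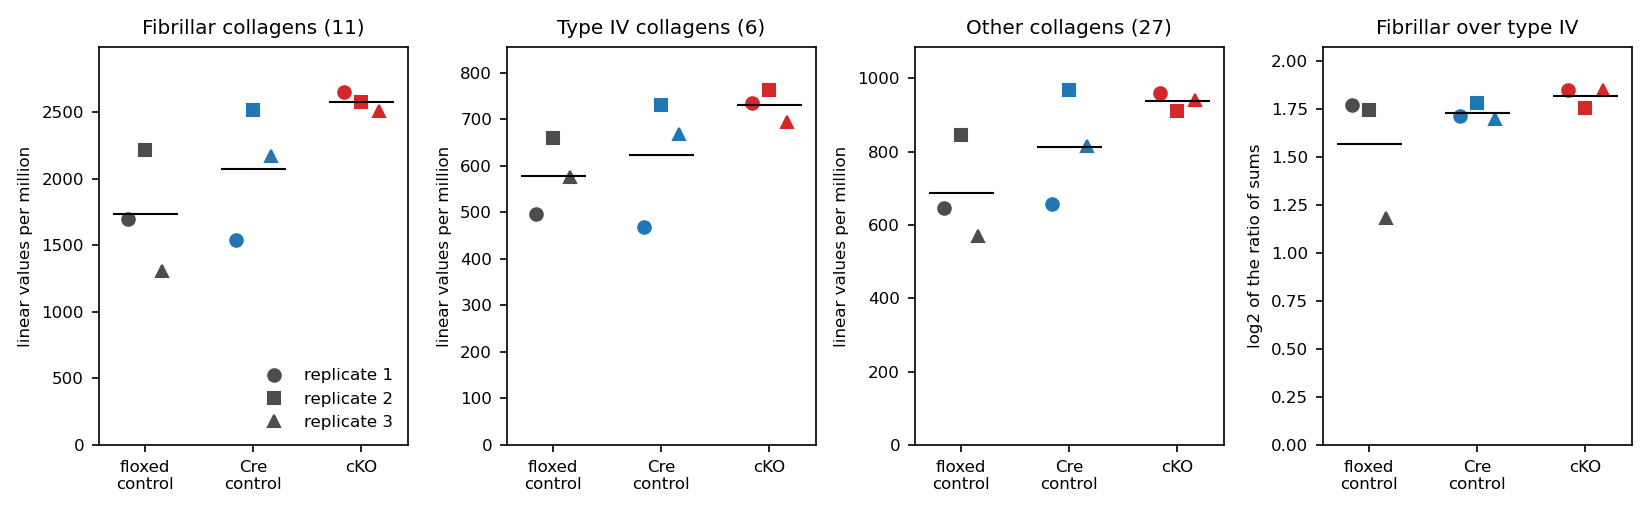
Summed linear values in cpm of the fibrillar, type IV and other collagens (vertical axes, each from 0) for the 9 libraries by genotype, and the log2 ratio of fibrillar to type IV sums in the last panel, with a point for each replicate and a line for the mean. The cKO libraries lie close together (fibrillar 2578 ± 70.0, SD, n = 3) while the floxed (1737.5 ± 457) and Cre controls (2075 ± 494) spread widely.

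The balance between fibrillar and type IV collagens was alike in 8 libraries and lower in the ninth. The log2 ratio of the summed values was 1.77, 1.75 and 1.18 in floxed controls 1 to 3. In the Cre controls it was 1.72, 1.78 and 1.70, and in the cKO it was 1.85, 1.76 and 1.85. Floxed control 3 thus stood apart from the other 8 libraries, and the cKO and Cre control ratios overlapped.

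Each of the 39 collagens tested had a within-genotype SD above the median of all genes tested, 0.0740 on the log2 scale. The median SD of the collagens was 0.190, and 27 of them lay above the 90th percentile of all genes and 23 above the 95th. The largest SDs belonged to Col12a1 (0.586), a FACIT of dense connective tissue, Col1a1 (0.521) and Col1a2 (0.382). The smallest were those of Col5a3 (0.0776), a minor chain of type V, the FACIT Col20a1 (0.0783), Col4a6 (0.0821), the type VI chain Col6a6 (0.0840) and Col2a1 (0.0844). High expression and wide spread did not go together in every case, since Col2a1 was among the 6 highest members per kilobase.

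**Figure D2:**
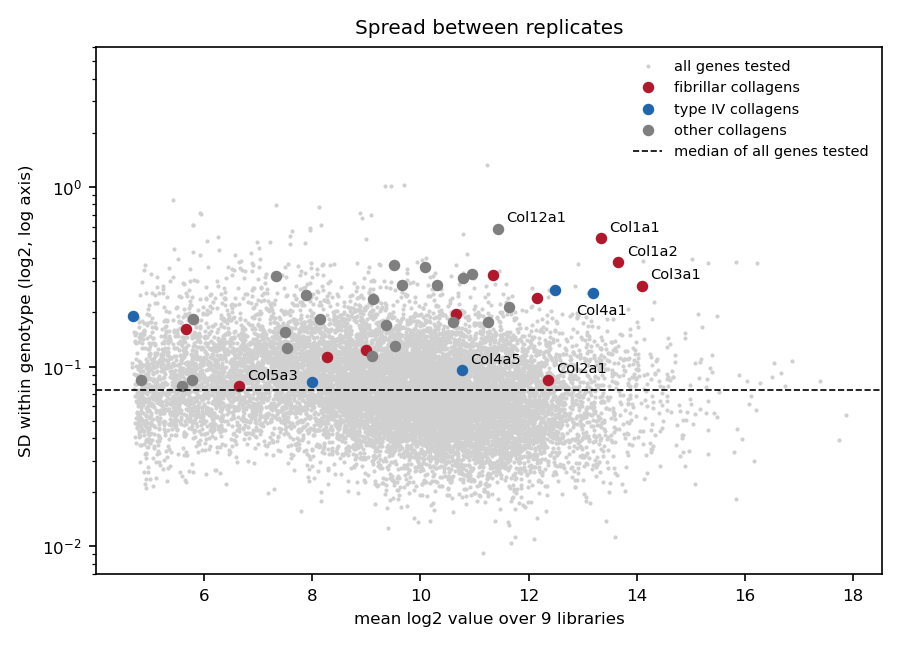
Within-genotype SD (vertical log axis, log2 units) against the mean log2 value over the 9 libraries (horizontal axis), with grey dots for all 14029 genes tested and coloured points for the 39 collagens. Every collagen lies above the dashed median of 0.0740, from Col5a3 at 0.0776 to Col12a1 at 0.586.

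This spread was not shared evenly by the genotypes. The median SD of the collagens was 0.221 in the floxed controls, 0.224 in the Cre controls and 0.0787 in the cKO, where that of all genes tested was 0.0536, 0.0788 and 0.0555. In 30 of 39 collagens the range of the 3 cKO values was narrower than that in either control genotype. The difference in spread between genotypes was not tested.

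A few control libraries carried most of it. The lowest floxed control was replicate 3 for 22 of 39 collagens and the highest was replicate 2 for 32. Among Cre controls the lowest was replicate 1 for 31 collagens and the highest was replicate 2 for 34. Floxed control 3 was low in fibrillar collagens and not in type IV: all 11 fibrillar genes fell below their genotype mean there, with a median deviation of -0.24, against 1 of 5 type IV genes, with a median deviation of 0.015. In Cre control 1 both classes were low, with 11 of 11 fibrillar genes (median -0.26) and 4 of 5 type IV genes (median -0.15) below the mean.

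**Figure D3:**
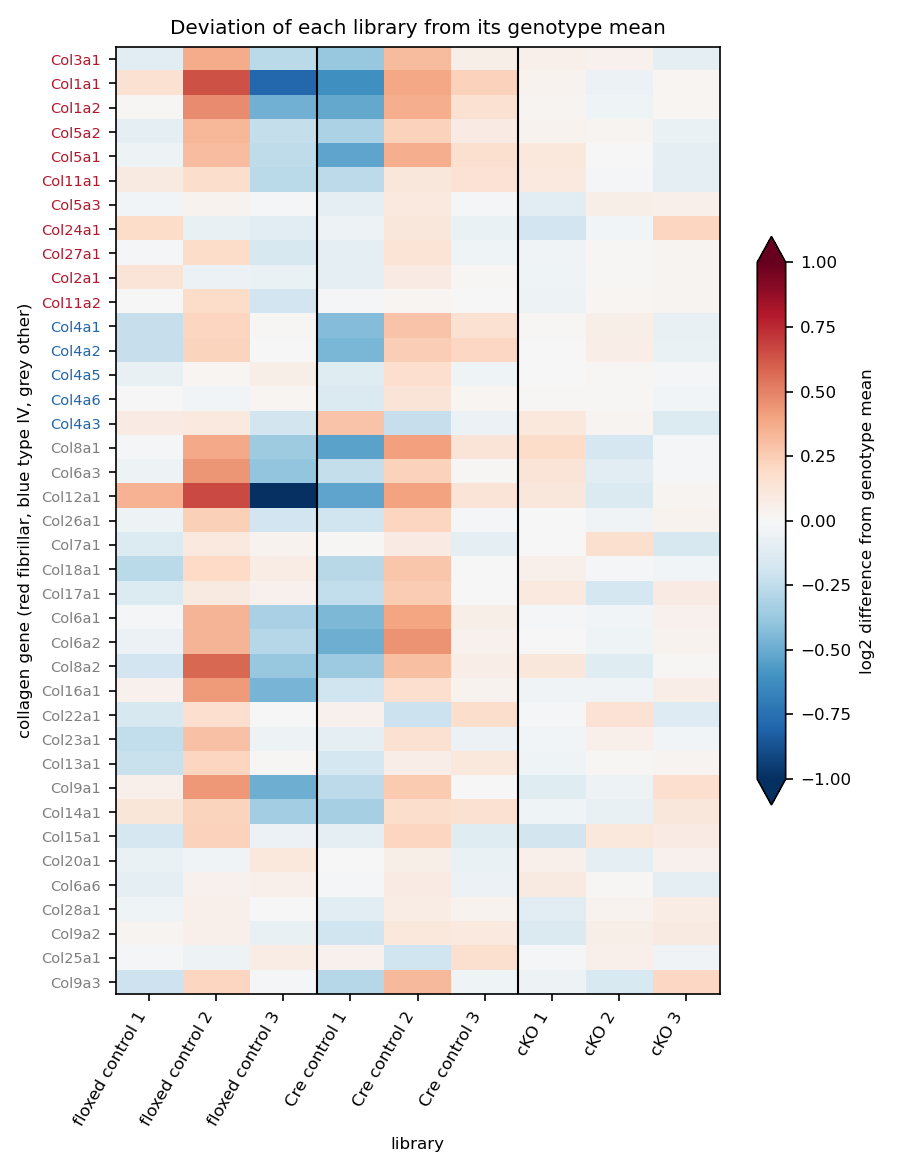
Difference of each library from the mean of its genotype (colour, log2) for the 39 collagens tested (vertical) in the 9 libraries (horizontal). Floxed control 3 and Cre control 1 are below the mean for all 11 fibrillar collagens, and floxed control 3 is above it for 4 of 5 type IV collagens.

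Between floxed controls 2 and 3, 2 samples of the same genotype, the largest gaps were as large as 3.18-fold. Col12a1 was at 11.28, 11.59 and 9.92 in the 3 floxed controls, and Col1a1 at 13.09, 13.57 and 12.15, a 2.67-fold gap between replicates 2 and 3. Col2a1 was at 12.53, 12.34 and 12.33, with nearly the same value in replicates 2 and 3. Several genes of the meninges and head mesenchyme were also low in floxed control 3. Among the floxed controls, Foxc1, Foxc2, Dcn, Aldh1a2 and Slc6a13 were instead lowest in replicate 1. The summed level of 12 such markers on the log2 scale was 13.28, 13.77 and 13.16 in the floxed controls, 13.65, 13.97 and 13.74 in the Cre controls and 13.95, 13.98 and 13.91 in the cKO. Twist1, a transcription factor of head mesenchyme, was at 9.72, 9.91 and 8.80 in the floxed controls, and Prrx1, another, at 10.44, 10.72 and 9.63. The sum of the endothelial markers was not lowest in floxed control 3. It was 12.83, 13.18 and 13.03 in the floxed controls, lowest in replicate 1, and 12.97, 13.29 and 13.20 in the Cre controls, lowest in replicate 1.

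The first comparison, cKO with the floxed control, asks which genes differ where both alleles of Gpr161 are deleted from the Wnt1-Cre lineage. The floxed control also lacks the transgene, so deletion and transgene cannot be told apart in this comparison. Collagens were mostly higher in the cKO. An adjusted p under 0.05 was reached by 14 collagens that were higher and 1 that was lower, 15 of 39 in all (38.5%), where 38.3% of all genes tested passed, 19.5% higher and 18.8% lower. The collagens were therefore called about as often as genes in general, and 14 of the 15 calls lay on 1 side. The log2 fold change was above 0 for 32 of 39 collagens, against 52.4% of all genes, and its median was 0.34 against 0.0112. Counted by a fold change over 1.5 as well, 6 collagens were DEGs, all higher (Col8a1, Col6a3, Col3a1, Col1a2, Col26a1 and Col7a1), where 2.92% of all genes were DEGs, 1.34% higher and 1.58% lower. The 3 cKO values lay outside the 3 floxed control values for 24 collagens, 22 above and 2 below, where 57.1% of all genes did so, 29.9% above and 27.3% below. The number of calls leaned on single libraries: it was 7 without floxed control 3 or without cKO 1, 8 without cKO 2, 9 without floxed control 1 and 23 without Cre control 1. The share of all genes that passed also moved, to 26.7%, 25.7%, 30%, 28.3% and 46.7% in these fits, in that order. There were 15 collagen DEGs without floxed control 2.

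**Figure D4:**
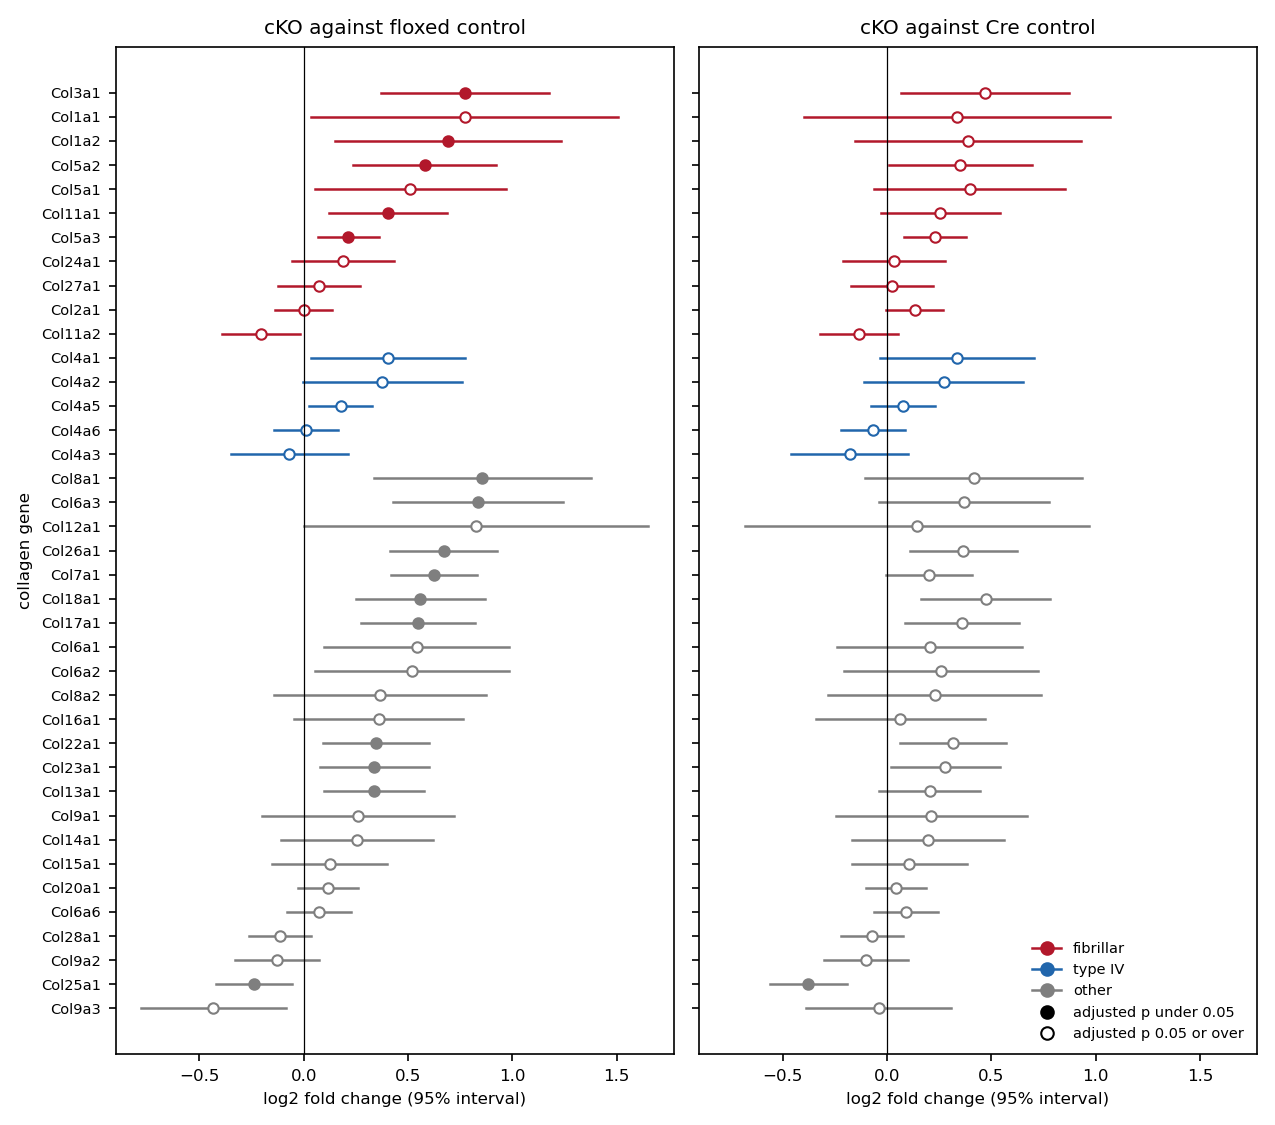
Log2 fold change with its 95% interval (horizontal axes) for the 39 collagens (vertical) in cKO against each control, with red for fibrillar, blue for type IV and grey for other collagens, and filled points for an adjusted p under 0.05. In cKO against the floxed control 14 filled points lie right of 0 and 1 left of it, and in cKO against the Cre control a single filled point, Col25a1, lies left of 0.

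Of the fibrillar collagens 5 of 11 (45.5%) rose in the cKO against the floxed control and none fell, where 38.3% of all genes passed, 19.5% higher and 18.8% lower. Their median log2 fold change was 0.40. Col3a1 was at 13.63, 14.11 and 13.47 in the floxed controls, 13.67, 14.36 and 14.10 in the Cre controls and 14.56, 14.55 and 14.42 in the cKO. Every cKO value was above every control value of either genotype. The rise over the floxed control was 1.71-fold (log2 0.77, SE 0.18, adjusted p = 0.00832 by limma). Col1a2 was at 13.34, 13.80 and 12.85 in the floxed controls, 13.12, 14.00 and 13.79 in the Cre controls and 14.05, 13.98 and 14.04 in the cKO. It rose 1.61-fold (log2 0.69, SE 0.24, adjusted p = 0.0461), and its cKO values overlapped with the Cre controls. Its partner chain Col1a1, at 12.75, 13.75 and 13.60 in the Cre controls and 13.74, 13.65 and 13.72 in the cKO, differed from the floxed control by the same 1.71-fold as Col3a1 but with a wider interval (log2 0.77, 95% interval 0.04 to 1.51) and an adjusted p of 0.0901.

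The chains of types V and XI, which are built into type I and type II fibrils and limit their width, split between called and uncalled members. Col5a2 was at 11.79, 12.22 and 11.64 in the floxed controls and at 12.50, 12.49 and 12.40 in the cKO, and rose 1.49-fold (log2 0.58, adjusted p = 0.0147). Col5a2 is the neighbour of Col3a1 on the genome, at chr1:45374321-45503282 beside chr1:45311538-45349706. Col5a1 differed by 0.51 on the log2 scale (adjusted p = 0.0742). Col5a3 was weakly expressed, at 6.55, 6.61 and 6.56 in the floxed controls and 6.68, 6.84 and 6.83 in the cKO. Its rise was the smallest of the called collagens (log2 0.21, adjusted p = 0.0279), and its SDs within a genotype were 0.033 to 0.095. Col11a1 rose 1.32-fold (log2 0.40, adjusted p = 0.0308), whereas Col11a2 had a log2 fold change of -0.20 (adjusted p = 0.0793).

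Col2a1 differed least among the fibrillar collagens. It was at 12.17, 12.35 and 12.27 in the Cre controls and 12.36, 12.41 and 12.43 in the cKO, with a mean of 12.40 in both the floxed control and the cKO. The 95% interval of the log2 difference between these genotypes ran from -0.14 to 0.14 (adjusted p = 0.994). Col24a1 and Col27a1, the fibrillar collagens of developing bone and cartilage, had log2 fold changes of 0.19 (adjusted p = 0.196) and 0.07 (adjusted p = 0.547).

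Of the 5 type IV collagens tested none passed the adjusted p by limma in the main fit of all 9 libraries, where 38.3% of all genes did. An unadjusted p under 0.05 was reached by 2 of these collagens, where 48.1% of all genes did. Their median log2 fold change was 0.18. Col4a1 was at 12.81, 13.26 and 13.05 in the floxed controls, 12.67, 13.39 and 13.26 in the Cre controls and 13.45, 13.504 and 13.37 in the cKO. Col4a2 was at 12.10, 12.55 and 12.34, at 11.98, 12.68 and 12.65, and at 12.71, 12.77 and 12.64 in the same libraries. For both chains each cKO value lay above the 3 floxed controls and overlapped with the Cre controls. The log2 fold changes were 0.40 for Col4a1 (95% interval 0.03 to 0.77, adjusted p = 0.0799) and 0.38 for Col4a2 (interval -0.00295 to 0.76, adjusted p = 0.106). Both intervals reach up nearly to the log2 fold change of Col3a1. The chains Col4a5 and Col4a6, of the other basement membrane networks, had log2 fold changes of 0.18 (adjusted p = 0.0653) and 0.01 (adjusted p = 0.908), and the low Col4a3 one of -0.07 (adjusted p = 0.696). Col4a1, Col4a2 and Col4a5 did pass in some alternative fits. These were only the 6 libraries compared (44.3% of all genes passed) and replicate numbers as a block (40.5%). They also passed without Cre control 1 (46.7%), and without floxed control 3 and Cre control 1 together (38.1%). Col4a5 passed as well with quantile normalization (38.4%) or without Cre control 2 (38%). Whether fibrillar and type IV collagens differ in their response was not tested.

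Among the remaining 27 collagens, 23 were tested, 9 rose and 1 fell (43.5% called), where 38.3% of all genes passed, 19.5% higher and 18.8% lower. Their median log2 fold change was 0.34. Col7a1, the anchoring fibril collagen that ties basement membranes to the tissue below, had the smallest adjusted p of all collagens. It was at 7.05, 7.29 and 7.23 in the floxed controls, 7.63, 7.70 and 7.52 in the Cre controls and 7.82, 7.97 and 7.66 in the cKO. It rose 1.54-fold (log2 0.63, SE 0.092, adjusted p = 0.00113). Here the Cre controls too lay above all floxed controls, and they overlapped with the cKO.

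Col6a3, a chain of the beaded filaments of type VI, and Col8a1, of the short-chain network around vessels, had the largest rises. Col6a3 was at 9.83, 10.32 and 9.49 in the floxed controls, 10.11, 10.57 and 10.35 in the Cre controls and 10.84, 10.61 and 10.69 in the cKO, with no overlap between the cKO and either control. It rose 1.78-fold over the floxed control (log2 0.83, adjusted p = 0.00623). Col8a1 was at 9.06, 9.46 and 8.73, at 8.98, 9.93 and 9.65, and at 10.12, 9.77 and 9.92 in the same order, and rose 1.81-fold (log2 0.86, adjusted p = 0.0166). The other abundant type VI chains, Col6a1 and Col6a2, had log2 fold changes of 0.54 (adjusted p = 0.0549) and 0.52 (adjusted p = 0.0736). Col12a1, with a log2 fold change as large as that of Col6a3 (0.83), had an adjusted p of 0.104, its floxed controls being the most scattered of all collagens.

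Col26a1 and Col18a1 rose with closely grouped cKO replicates. Col26a1 was at 10.88, 11.17 and 10.74 in the floxed controls, 11.03, 11.45 and 11.23 in the Cre controls and 11.60, 11.57 and 11.63 in the cKO, and rose 1.59-fold (log2 0.67, SE 0.12, adjusted p = 0.00211). Col18a1, whose product carries endostatin at its end and lies in vessel and epithelial basement membranes, was at 11.16, 11.63 and 11.50, at 11.24, 11.80 and 11.52, and at 12.04, 11.97 and 11.96. It rose 1.47-fold (log2 0.56, adjusted p = 0.011). For both genes every cKO value was above every control value of either genotype. Col15a1, the other multiplexin, had a log2 fold change of 0.13 (adjusted p = 0.451).

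All 4 transmembrane collagens passed the adjusted p, 3 of them higher and 1 lower. Of all genes, 38.3% passed, 19.5% higher and 18.8% lower. Col17a1, the hemidesmosome collagen of epithelia, was weakly expressed, at 5.41, 5.63 and 5.59 in the floxed controls and 6.19, 5.91 and 6.17 in the cKO, and rose by 0.55 on the log2 scale (adjusted p = 0.00682). Col13a1, which sits at cell adhesions, rose by 0.34 (adjusted p = 0.0329), and Col23a1 by 0.34 (adjusted p = 0.0426). Col25a1, a transmembrane collagen of neurons, was the only collagen that fell. It was at 9.11, 9.08 and 9.20 in the floxed controls, 9.31, 9.07 and 9.43 in the Cre controls and 8.88, 8.94 and 8.86 in the cKO. Every cKO value lay below every control value of either genotype, and the log2 fold change against the floxed control was -0.24 (adjusted p = 0.0441).

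Of the 8 FACITs tested, 1 rose (12.5%) and none fell, where 19.5% of all genes rose and 18.8% fell. It was Col22a1, a collagen of tissue junctions, which rose by 0.34 on the log2 scale (adjusted p = 0.0366). The chains of type IX, a FACIT of cartilage and embryonic eye, did not move as 1 group. Col9a3 was at 9.19, 9.61 and 9.38 in the floxed controls and 8.91, 8.81 and 9.16 in the cKO, a log2 difference of -0.43 (adjusted p = 0.0506). Col9a1 and Col9a2 had log2 fold changes of 0.26 (adjusted p = 0.34) and -0.13 (adjusted p = 0.294).

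Calls were tested by leaving out each of the 9 libraries in turn. In all 9 fits 6 collagens kept an adjusted p under 0.05: Col7a1 (highest adjusted p 0.00601), Col26a1 (0.0103), Col6a3 (0.0287), Col17a1 (0.0314), Col3a1 (0.0376) and Col18a1 (0.0419). Col8a1 lost its call without floxed control 3 (0.068) or cKO 1 (0.0645), and Col5a2 without floxed control 1 (0.0529), floxed control 3 (0.0607) or cKO 1 (0.0505). Col11a1 lost it without floxed control 3 (0.108), cKO 1 (0.105) or cKO 2 (0.0705). Col5a3 lost it without floxed control 1 (0.0803), floxed control 3 (0.0772), cKO 2 (0.0946) or cKO 3 (0.0877). Col22a1 lost it without floxed control 1 (0.131), floxed control 3 (0.0905), cKO 1 (0.0845) or cKO 2 (0.126). Col13a1 lost it without floxed control 1 (0.112), floxed control 3 (0.078) or any 1 cKO library (0.0681 to 0.0858). Col25a1 lost it without any 1 library of either of these genotypes (0.059 to 0.142). Col1a2 and Col23a1 lost it without floxed control 1 (0.1 and 0.147), floxed control 3 (0.166 and 0.118), Cre control 3 (0.0569 and 0.0543) or any 1 cKO library (0.0896 to 0.112 and 0.0829 to 0.115).

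The comparison of the cKO with the Cre control holds the transgene constant and differs in the second floxed allele. Here 1 of 39 collagens passed the adjusted p, Col25a1, where 9.72% of all genes tested did, 4.86% higher and 4.85% lower. Col25a1 was 0.77 times its level in the Cre control (log2 -0.38, SE 0.082, adjusted p = 0.0254). That call was lost without Cre control 3 (adjusted p = 0.0821) or any 1 cKO library (0.0576 to 0.0919). The count was 2 without floxed control 1 (6.42% of all genes) or floxed control 2 (7.7%), and 4 without Cre control 2 (3.92%). It was 0 without Cre control 3 (1.75%) or any 1 cKO library (1.69% to 6.02%), and 5 with the replicate numbers as a block (12.6%). No collagen was a DEG by limma, apart from 1 when Cre control 2 was left out. An unadjusted p under 0.05 was reached by 9 collagens, where 29.3% of all genes did. The direction leaned the same way as against the floxed control, which shares the cKO libraries: 32 of 39 collagens were above 0, against 53.7% of all genes, and the median log2 fold change was 0.20 against 0.0117. The cKO values did not overlap with the Cre controls for 13 collagens, 11 above and 2 below, where 31.5% of all genes did not overlap.

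Over the Cre control the median log2 fold change was 0.26 for fibrillar and 0.077 for type IV collagens. These medians were 0.13 and 0.016 without Cre control 1, and the median of type IV was 0.16 without Cre control 2. Col3a1 differed by 0.47 on the log2 scale (95% interval 0.065 to 0.87, adjusted p = 0.121), Col1a2 by 0.39 (adjusted p = 0.313) and Col1a1 by 0.34 (adjusted p = 0.526). The nearest to the threshold among higher collagens were Col5a3 (0.23, adjusted p = 0.0556), Col18a1 (0.47, adjusted p = 0.0591) and Col26a1 (0.37, adjusted p = 0.0722). Col2a1 had a log2 fold change of 0.13 against the Cre control (adjusted p = 0.18), and its 3 cKO values all lay above the 3 Cre controls.

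In the comparison of both controls, no collagen passed the adjusted p by limma, where 0.057% of all genes did (0.0499% higher and 0.00713% lower) and 0.0285% were DEGs, all of them higher, and 4 had an unadjusted p under 0.05, where 17.5% of all genes did. The Cre control nevertheless lay above the floxed control in 32 of 39 collagens (49.6% of all genes), with a median log2 fold change of 0.11 (-0.00101 over all genes). Col7a1 alone had groups that did not overlap, where 22.8% of all genes had, at 1.34-fold (log2 0.42, adjusted p = 0.145). The medians of the 3 comparisons thus placed the Cre control between the floxed control and the cKO for the collagens as a group. Because the comparisons share libraries, they are not independent of each other.

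Genes whose chains join in 1 molecule were compared as differences within a library, which removes any change that both chains share. Col4a1 minus Col4a2 stayed between 0.61 and 0.74 on the log2 scale in the 9 libraries, a range of 0.13, while Col4a1 itself ranged over 0.83 and Col4a2 over 0.80. The pair with the shared start therefore kept its ratio in libraries whose levels differed. Col6a1 minus Col6a2 was as steady, between -0.24 and -0.087, where each gene ranged over 1.05 and 0.99. These are differences of levels between genes, uncorrected for length.

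Type I collagen kept a less constant ratio. Col1a1 minus Col1a2 was -0.26, -0.24 and -0.70 in the floxed controls, -0.37, -0.24 and -0.18 in the Cre controls and -0.30, -0.33 and -0.32 in the cKO. Floxed control 3, the library lowest in both chains, stood apart in their ratio too. Col9a1 minus Col9a2 was also lowest there, at -2.77, and ran from -2.38 to -1.89 elsewhere.

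The remaining pairs, of types XI and IV, were highest in the cKO. Col11a1 minus Col11a2 was 2.20, 2.11 and 2.04 in the floxed controls, 2.09, 2.43 and 2.48 in the Cre controls and 2.88, 2.70 and 2.61 in the cKO. Col4a5 minus Col4a6 was 2.63, 2.77 and 2.75, then 2.77, 2.78 and 2.68, and in the cKO 2.87, 2.89 and 2.89. In both pairs every cKO library lay above all 6 controls, by a wider margin in type XI. The same order held, by a much smaller margin, for Col4a1 minus Col4a2, at 0.74, 0.73 and 0.73 in the cKO against at most 0.72 in a control. These differences between chains were not tested.

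**Figure D5:**
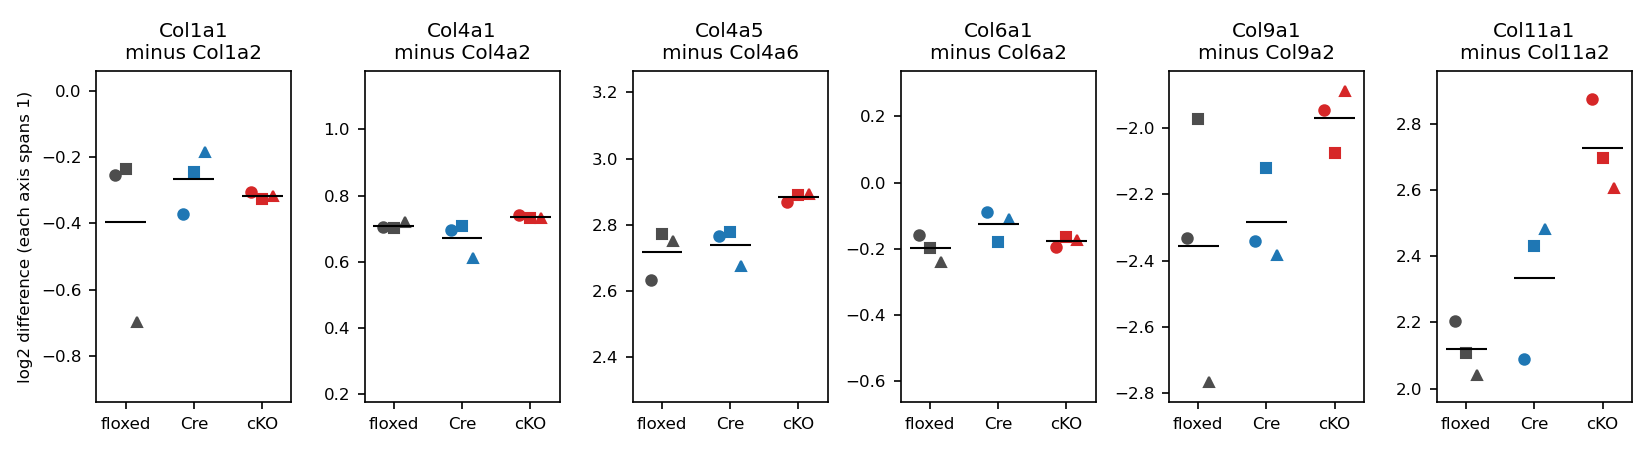
Log2 difference between 2 chains of the same collagen type (vertical axes, each spanning 1 log2 unit around its own centre) in the 3 replicates of each genotype (circle, square and triangle for replicates 1 to 3, with a line for the mean). Col4a1 minus Col4a2 and Col6a1 minus Col6a2 stay flat, type I and type IX dip in floxed control 3, and Col11a1 minus Col11a2 is highest in the 3 cKO libraries.

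Enzymes and chaperones that make collagen were mostly higher in the cKO. Of 31 genes of collagen biosynthesis, 30 were tested, and 17 rose and 1 fell against the floxed control, with a median log2 fold change of 0.26 and 3 DEGs, where 19.5% of all genes rose and 18.8% fell. P4hb, the shared subunit of prolyl hydroxylase, was at 13.18, 13.24 and 13.14 in the floxed controls, 13.22, 13.38 and 13.38 in the Cre controls and 13.60, 13.53 and 13.504 in the cKO (log2 0.36, adjusted p = 0.00124). Loxl2, a crosslinking lysyl oxidase, was at 9.80, 10.16 and 9.63, then 9.96, 10.47 and 10.28, and 10.85, 10.84 and 10.71 in the cKO (log2 0.94, adjusted p = 0.00128). For both genes the cKO was above all 6 controls. Ppib and Crtap, members of the prolyl 3-hydroxylation complex, rose by 0.23 (adjusted p = 0.00187) and 0.52 (adjusted p = 0.00347), and Plod2, a lysyl hydroxylase, by 0.32 (adjusted p = 0.00264). Against the Cre control 2 genes rose and 1 fell, where 9.72% of all genes passed, with a median of 0.12: P4hb (0.22, adjusted p = 0.0364) and Loxl2 (0.57, adjusted p = 0.0375) were higher, and Tll1, a procollagen-trimming protease, was lower (-0.25).

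Laminins and perlecan, which share the basement membrane with type IV collagen, led the partner genes that rose. Of 17 such genes 5 rose against the floxed control, with a median log2 fold change of 0.24, and 3 of them rose against the Cre control. In these comparisons 38.3% and 9.72% of all genes passed, so that the partners were called no more often than genes in general in the first. Lama5, a laminin chain, was at 8.11, 8.31 and 8.51 in the floxed controls, 8.39, 8.58 and 8.54 in the Cre controls and 9.39, 8.95 and 9.27 in the cKO. Its log2 fold changes were 0.90 against the floxed control (adjusted p = 8.84e-04) and 0.70 against the Cre control (adjusted p = 0.0136). Hspg2, which encodes perlecan, rose by 0.72 (adjusted p = 0.00308) and 0.52 (adjusted p = 0.0423), and Lama1 by 0.54 (adjusted p = 0.00427) and 0.44 (adjusted p = 0.0358). Lama3 and Sparc, a collagen-binding matrix protein, rose against the floxed control by 0.64 (adjusted p = 0.0112) and 0.38 (adjusted p = 0.0138), and had adjusted p of 0.117 and 0.185 against the Cre control. Whether the laminins differ from type IV collagens in this was not tested.

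Among 17 collagen receptors and genes of collagen turnover 16 were tested, and 9 rose and 1 fell against the floxed control, where 19.5% of all genes rose and 18.8% fell, with a median of 0.24. Itgb1, the beta chain of the collagen-binding integrins, rose by 0.31 (adjusted p = 0.00308). Ddr1, a receptor tyrosine kinase for collagen, rose by 0.17 (adjusted p = 0.00523) and, as the only member of this list, against the Cre control (0.21, adjusted p = 0.013), where 9.72% of all genes passed. Ctsk, a collagen-degrading protease, Mrc2, which takes up collagen fragments, and Timp1, an inhibitor of metalloproteinases, rose by 0.49, 0.42 and 0.24 (adjusted p = 0.00943, 0.0102 and 0.0149). Between the controls no gene of these 3 lists passed.

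Some markers of the cell types that make collagen were also higher in the cKO, where 19.5% of all genes rose over the floxed and 4.86% over the Cre control. Of 12 markers of the meninges and head mesenchyme 7 rose against the floxed control (median log2 fold change 0.48), and none passed against the Cre control. The 7 were Pdgfra, Twist1, Twist2, Prrx1, Foxc1, Lum and Dcn. Foxd1 (0.47), Foxc2 (0.13), Ogn (0.12), Slc6a13 (0.0076) and Aldh1a2 (-0.13) did not pass. Over the Cre control 8 of the 12 were above 0, with Ogn lowest at -0.39. Of 10 pericyte and smooth muscle markers 5 rose, with a summed level of 13.21 to 13.43 in the floxed controls, 13.29 to 13.54 in the Cre controls and 13.64 to 13.77 in the cKO, and 1 rose against the Cre control. The 5 were Acta2, Tagln and Myh11, of contractile cells, with Anpep and Notch3, while Pdgfrb, Rgs5, Cspg4, Abcc9 and Kcnj8, which mark pericytes, did not pass. Myh11 lay near the filter, at 4.67, 4.67 and 4.85 in the floxed controls, since 1 cpm was at 4.73 to 4.78 in log2 values. Of 10 endothelial markers 6 rose, with sums of 12.83 to 13.18, 12.97 to 13.29 and 13.23 to 13.33, and none passed against the Cre control. For cartilage and bone 5 of 10 markers were tested and 1 rose, Alpl, a phosphatase of bone, against both controls. Their summed level was 9.24 to 9.63, 9.50 to 9.63 and 9.73 to 9.86, and Bglap, which encodes osteocalcin, was below 0 in every library.

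For blood and neural markers the same shares of all genes, 38.3% and 9.72%, are the background. Of 8 erythroid genes 6 rose when the cKO was compared with the floxed control and 3 when it was compared with the Cre control, with sums of 17.21 to 17.98, 17.48 to 17.68 and 17.85 to 18.80. Of 10 markers of midbrain neural tissue 3 rose and 3 fell against the floxed control, and 3 rose and 1 fell against the Cre control. Pax5, Sox2 and Nes rose in both comparisons. Dcx (-0.64), Tubb3 (-0.41) and Elavl3 (-0.40) fell against the floxed control, and Dcx (-0.35) against the Cre control. The sums of the 10 markers were 16.70 to 16.79, 16.52 to 16.76 and 16.54 to 16.63. All 10 passed the filter on low values, so the defining markers of the labelled tissue were present. The part of the pericyte, cartilage, erythroid and neural markers in the collagen results was not tested.

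With the mean of the 12 mesenchyme markers as a covariate, 4 collagens passed against the floxed control, Col26a1 and Col7a1 higher and Col11a2 and Col9a3 lower, where 10.6% of all genes passed. The median log2 fold change of the fibrillar collagens was then -0.01 and that of type IV 0.032. Col3a1, at 0.77 without the covariate, was at 0.22 with it (adjusted p = 0.263). Against the Cre control the same covariate left 5 collagens past the threshold, where 8.06% of all genes passed: Col25a1 lower, and Col3a1, Col26a1, Col6a3 and Col5a2 higher. For Col3a1 the log2 fold change was 0.42 (adjusted p = 0.0281) and for Col26a1 it was 0.33 (adjusted p = 0.018). With endothelial markers as the covariate, 2 collagens passed against the floxed control, Col7a1 higher and Col9a3 lower, where 24.6% of all genes passed, and none against the Cre control, where Col25a1 had an adjusted p of 0.0567. The median was 0.13 for the fibrillar collagens and -0.078 for type IV. Without floxed control 3 and Cre control 1, in each control genotype the library lowest in mesenchyme markers, 18 collagens passed in the first comparison and 1 in the second. Of all genes, 38.1% and 20.9% passed there, and the fibrillar medians were 0.27 and 0.13. Col7a1 kept its call in each of these 3 fits, with log2 fold changes of 0.51, 0.48 and 0.64. The covariates themselves did not overlap between the floxed controls and the cKO. The mesenchyme mean was 9.15 to 9.77 and 9.81 to 9.88, and the endothelial mean was 9.31 to 9.65 and 9.72 to 9.81. Against the floxed control, the covariate fits therefore cannot tell a marker difference from a genotype difference.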

How the data were processed

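Total RNA was taken with Trizol and columns from dissected midbrain tissue, and poly-A selected libraries were made with the NEBNext Ultra kit. The authors deposited 1 table of log2 values, with a column for each of the 9 libraries. The transformation is not stated. The submitters' processing notes list FastQC 0.10.1, kallisto 0.46.1, DESeq2 and mm10, with no order. The values span -2.12 to 17.95, and low values are drawn together, which shrinks fold changes of weak genes. No counts are given, so depth is unknown and no counting interval was set.

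Of 27360 rows, 5764 had no name and were left out, and the highest row was kept per symbol. Genes with 1 cpm on the linear values (2 to the power of the value) in at least 3 libraries were tested, 14029 in all. Because the table holds log2 values, limma 3.58.1 in R 4.3.3 was run on the 9 libraries together, with 1 coefficient per genotype (eBayes with a trend, two-sided, 6 residual degrees of freedom), with Benjamini-Hochberg adjustment over all genes tested. Genes past an adjusted p of 0.05 that also differed by more than 1.5-fold were called DEGs. Tested on simulated data, limma recovered 98.5% to 99.5% of 200 genes given a log2 change of 1. These genes were drawn from all genes tested, whose median SD within genotype was 0.0740. For collagens that median was 0.190, and their largest log2 fold change over the floxed control was 0.86. The simulation therefore does not show how often a change in a collagen would be found. Each library is 1 fetus, and litters are not given. The p-values set each difference against a spread pooled over the 3 genotypes and moderated by that of all genes. For collagens this spread was not equal, with a median SD of 0.0787 in the cKO and 0.221 and 0.224 in the floxed and Cre controls. The Cre controls thus also enter the SE of cKO against the floxed control. Replicate numbers were not used as pairs.

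Collagens were described singly where they passed the adjusted p in a comparison, were an abundant chain (types I to IV) or Col18a1, or belonged to a chain pair. In the lists for biosynthesis, partners and receptors, the 5 with the smallest adjusted p were named, and other genes were named after their values were seen. The members and lists were chosen with earlier results of these data known. Positions are from GENCODE M21 on GRCm38. Alternatives changed the filter, the scaling and the libraries used, left out each library, or took replicate numbers as a block. The covariates and the omission of a pair of libraries were chosen after seeing the data. Python 3.11.15 with pandas 2.3.3 drew up the tables.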

Additional observations from a re-analysis of the deposited data

How the results depend on the processing

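Against the floxed control, 15 collagens passed the adjusted p, and 38.3% of all genes. The count was 11 without the filter (25.9% of all genes) and 22 with only the 6 libraries compared (44.3%). It was 16 with libraries centred on their medians (37.9%), 17 with quantile normalization (38.4%) and 14 without a trend (38.1%). It ranged from 7 to 23, and the DEGs from 4 to 15, when a library was left out, where 25.7% to 46.7% of all genes passed. Against the Cre control 1 passed (9.72% of all genes), 0 with only the 6 libraries compared (3.11%), and 2 with quantile normalization (10.6%) or without a trend (8.89%). When a library was left out, 0 to 4 passed (1.69% to 23.5% of all genes), with 0 to 1 DEGs. Between the controls the count was 0 under every alternative. With the replicate numbers as a block the count was 20 against the floxed control (40.5% of all genes) and 5 against the Cre control (12.6%). The numbers did not establish pairs: same-numbered libraries correlated in their deviations at -0.027 to 0.26, and 4 of 9 libraries correlated best with their own number in both other genotypes.

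With a library left out, the fibrillar median lay between 0.27 and 0.49 for cKO over the floxed control, 0.13 and 0.33 for cKO over the Cre control, and 0.013 and 0.28 between the controls. For type IV the ranges were 0.14 to 0.20, 0.016 to 0.16 and 0.015 to 0.16. The covariates were added once the data had been seen. With mesenchyme markers 4 collagens passed against the floxed control (10.6% of all genes), with 1 DEG, and 5 against the Cre control (8.06%). The fibrillar median was then -0.0102 against the floxed control and -0.19 between the controls, that of type IV was 0.032 against the floxed control, and Col1a2 turned to -0.0255 (adjusted p = 0.942). With endothelial markers 2 and 0 passed (24.6% and 7.28% of all genes), with 1 DEG. The medians were then 0.13 and -0.078 against the floxed control, and Col23a1 turned to -0.0189 (adjusted p = 0.894). The cause was not tested. The unknown depth and 3 fetuses per genotype limit what a call that missed the threshold can show.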
